A study of Mus musculus with 32 samples.

Results

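The cytosolic ribosomal protein genes were followed in C2C12, a mouse myoblast line that fuses into myotubes when the medium is changed. Members were the probe sets annotated to a single gene whose symbol is Rpl or Rps with a number, Rplp0 to Rplp2 or Rpsa, without Rps6k genes and pseudogenes. This rule gave 45 probe sets of 32 genes, out of 12422 probe sets and 8251 genes on the array, and used no measured value. There were 16 genes of the large subunit and 16 of the small subunit. RNA had been hybridised to 32 arrays of a single Affymetrix design. In the TSA arm, 20 arrays covered cells given trichostatin A (TSA), an inhibitor of histone deacetylases, and control cells, both sampled in growth medium (called 0 h) and at 4, 12, 24 and 48 h of culture in differentiation medium, on 2 arrays for each group. In the Sir2 arm, 12 arrays covered C2C12 cells whose titles carry pHan with Sir2, a deacetylase gene, and cells whose titles carry pHan alone, called vector here, both sampled at 12 and 36 h of culture in differentiation medium on 3 arrays for each group. The labels give neither the TSA dose and schedule nor the species of the Sir2 gene, and they do not say whether arrays of a group came from separate cultures, so the p-values speak only of the spread among arrays, which may be technical.

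Each ribosome has a small subunit, which reads the mRNA, and a large subunit, which joins the amino acids. Their proteins are made in near-equal numbers, assembled with ribosomal RNA in the nucleolus, and encoded by some of the most abundant mRNAs of a growing cell. Many of these mRNAs begin with a pyrimidine tract that links their translation to mTOR signalling, and growth and differentiation of muscle cells are both known to alter ribosome production.

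The pyrimidine tract at the start of transcription is a feature that the choice of members did not use. RefSeq promoters of GRCm38.p6 were found for 26 of the 32 genes. A run of at least 8 unbroken C or T bases on the coding strand, within 25 bases on either side of the annotated start, was present in 13 of the 26 (50%), against 6014 of 27025 genes with a promoter in the table (22.3%). Such a run is a description of the window and no evidence of how the mRNA is controlled. The windows below belong to the 3 genes whose values passed a test (Rpl22 and Rpl10a have 2 annotated starts each) and to 3 members with long runs. Each is written on the gene's own strand with its longest pyrimidine run in capitals.
Rpl22, chr4:152324411-152324460, plus strand: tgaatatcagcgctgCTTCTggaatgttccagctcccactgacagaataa
Rpl22, chr4:152325701-152325750, plus strand: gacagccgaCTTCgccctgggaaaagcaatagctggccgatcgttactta
Rpl13a, chr7:45128721-45128770, minus strand: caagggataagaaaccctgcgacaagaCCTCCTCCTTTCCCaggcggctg
Rpl10a, chr17:28328446-28328495, plus strand: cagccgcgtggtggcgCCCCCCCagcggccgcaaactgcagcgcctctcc
Rpl10a, chr17:28328540-28328589, plus strand: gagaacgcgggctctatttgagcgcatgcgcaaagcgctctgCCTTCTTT
Rpl7a, chr2:26910782-26910831, plus strand: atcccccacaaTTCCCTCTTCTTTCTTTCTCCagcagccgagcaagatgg
Rps10, chr17:27635220-27635269, minus strand: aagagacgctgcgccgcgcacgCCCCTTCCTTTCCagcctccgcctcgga
Rps18, chr17:33955641-33955690, minus strand: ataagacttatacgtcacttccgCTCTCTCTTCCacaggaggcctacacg
The longest runs were 5 and 4 bases at the starts of Rpl22, 14 at Rpl13a, 7 and 8 at Rpl10a, 21 at Rpl7a, 13 at Rps10 and 11 at Rps18. Of the 3 genes with calls, Rpl22 had no run of the counted length and Rpl13a had a long one.

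The deposited values were intensities, and the arms were analysed apart. The TSA arm holds values below 0, which were set to 0, and 137.7 was added before log2 (8.82 in the Sir2 arm), so log2 changes of dim probe sets are compressed. The test was limma on the 7453 probe sets per arm whose mean reached 144.9 (TSA arm) or 31.1 (Sir2 arm), and a probe set passed with a Benjamini-Hochberg adjusted p under 0.05. The small number of arrays limits the precision. Muscle identity was visible in both arms: the summed intensity of 8 muscle markers (Myod1, Myog, Myf5, Des, Ckm, Acta1, Mylpf, Tnnt3) was 59287 to 62606 in control cells at 48 h, against 4870 to 5983 at 0 h. Of the markers of other cell types, Ptprc, Itgam, Cdh5 and Snap25 had means below 0 over the TSA arm, while the leukocyte marker Cd14 averaged 979.3 and the endothelial marker Kdr 937.4. The neuron marker Nefl averaged 615.6 with TSA, against 139.9 in controls, at 0 h (1.46 ± 0.35, limma, adjusted p = 0.0105). It was also higher with Sir2, by 1.47 ± 0.14 at 12 h and by 0.76 ± 0.14 at 36 h (limma, adjusted p = 6.77e-05 and 0.00467). The neuron marker Tubb3 was 8096 and 12209 with TSA, against 4132 and 3685 in controls, at 48 h. It went the other way at 0 h, where it averaged 6194 with TSA, against 8128.5 in controls. With Sir2 at 36 h Tubb3 was lower too (1296.7, against 1582.3 in vector cells), and neither pair of groups overlapped. The part of these markers in the results was not tested. Sums over the TSA arm were 577 to 1641 for 4 leukocyte markers, 476 to 1618 for 4 endothelial markers, 91 to 395 for 2 adipocyte markers and 3758 to 12412 for 4 neuron markers.

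Ribosomal protein probe sets ranged from below 0 to among the brightest of the array, and they were split at a chosen mean. There were 21 probe sets of 19 genes with a mean of at least 2000 in the TSA arm, and the same 21 had a mean of at least 500 in the Sir2 arm. Their means ran from 3172 to 30427 in the TSA arm and from 624.6 to 8768 in the Sir2 arm, and 15 members were among the 100 probe sets of highest mean in each arm. Rplp0, the core of the stalk that recruits elongation factors, had a mean of 30427 and a range of 18091 to 40242 in the TSA arm, and a mean of 6082 in the Sir2 arm. Rps4x, a small subunit protein encoded on the X chromosome, had a mean of 29481 at its brightest probe set, and Rps24, whose human counterpart is mutated in Diamond-Blackfan anaemia, had a mean of 29181. In the Sir2 arm the 3 highest means were those of Rpl41, the shortest ribosomal protein, at 8768, of Rps18, a protein of the small subunit head, at 6136, and of Rplp0. These orders describe probe sets, whose brightness also depends on the probe sequences, and do not rank the genes.

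The other 24 probe sets had means from -957.9 to 1704 in the TSA arm and from 5.0 to 262.5 in the Sir2 arm. After the filter 31 of the 45 were tested in the TSA arm (25 genes) and 29 in the Sir2 arm (23 genes). Rpl32, Rpl35a, Rpl39, Rpl39l, Rps14, Rps15 and Rps20 had no tested probe set in either arm, nor did Rps27l and Rpl38 in the Sir2 arm. Rpl39l, a copy of Rpl39 best known from testis, stayed between -47.8 and 140.4 in the TSA arm and between 3.01 and 12.7 in the Sir2 arm. Rps27l, a copy of Rps27 that p53 induces in human cells, ranged from 405.4 to 4262 in the TSA arm and from 2.85 to 8.53 in the Sir2 arm, so its probe set sat at percentile 83.9 of all means in the TSA arm and at 9.1 in the Sir2 arm. The 3 lowest means of the TSA arm were those of Rps4x at 161654_r_at (-957.9), Rps4x at 162229_at (-457.6) and Rpl35a (-287.7), and those of the Sir2 arm were Rps27l (5.0), Rpl7 at 97697_at (5.5) and Rps4x at 162229_at (5.6).

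Probe sets of the same gene often disagreed in level. Rps4x had 100780_at between 23509 and 35322 on the TSA-arm arrays, while 161654_r_at and 162229_at were at or below 0 on all 20. Rpl7, a large subunit protein, had 97695_s_at between 22977 and 31513 and 97697_at between -122.5 and 269.7. In all, 5 genes (Rpl19, Rpl7, Rps24, Rps28 and Rps4x) had both a probe set of high intensity and another that was not.

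**Figure D1:**
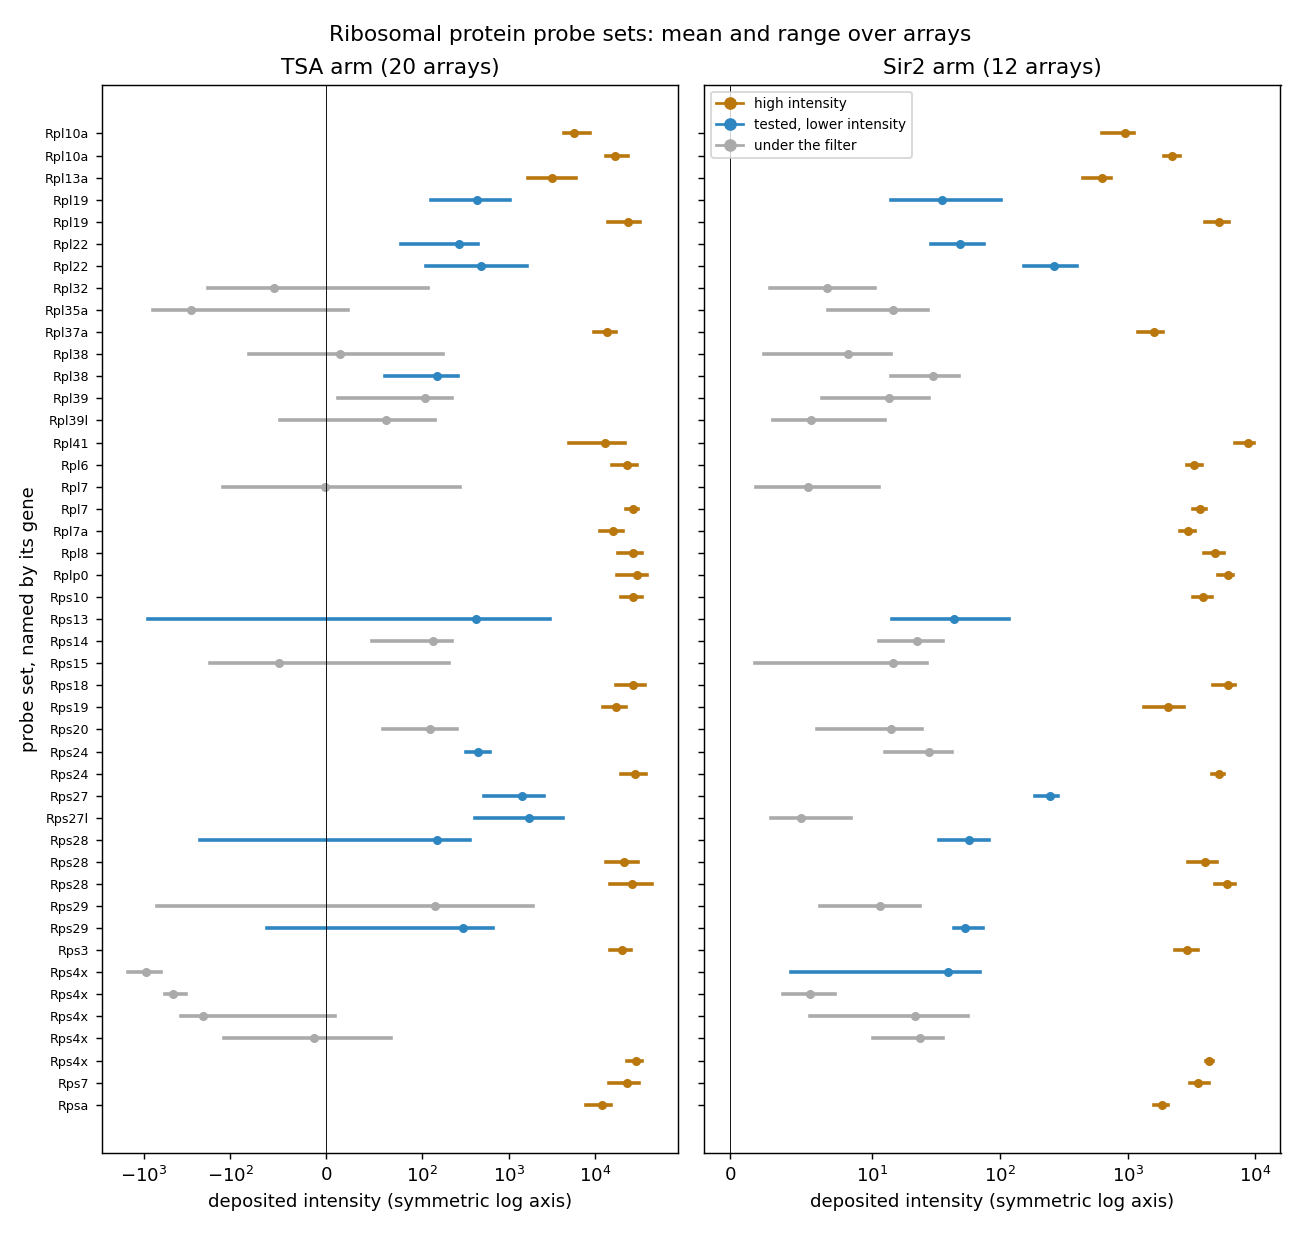
Mean (point) and range (line) of the deposited intensity of each of the 45 probe sets over the 20 TSA-arm arrays (left) and the 12 Sir2-arm arrays (right), on a symmetric log axis that is linear near 0. The means of the 21 probe sets of high intensity lie above those of the other 24, while some ranges overlap in the TSA arm (Rpl13a from 1664 to 5959 and Rps27l from 405.4 to 4262), and Rps4x has 1 bright probe set beside 4 that are not.

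The level of the bright ribosomal protein probe sets varied between arrays of the same group. The median log2 intensity of the 21 probe sets was 14.32 and 14.58 in TSA cells at 0 h, against 14.68 and 13.98 in control cells at 0 h. At 4 h it was 14.67 and 14.20 with TSA, against 14.16 and 13.82 in controls. The 2 control arrays at 0 h thus differed by 0.70, and arrays of the same group differed by 0.01 to 0.63 in the other 9 groups.

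At 12 h the median was 14.67 and 14.76 with TSA, against 14.50 and 14.85 in controls. At 24 h it was 14.83 and 14.20 with TSA, against 14.22 and 14.23 in controls. At 48 h it was 14.64 and 14.37 with TSA, against 14.40 and 14.77 in controls. The groups overlapped at 0, 12, 24 and 48 h, and at 4 h both TSA arrays lay above both control arrays. In 9 of the 10 TSA-arm groups the array with the higher ribosomal protein median also had the higher 99th percentile of all probe sets, which ranged from 12806 to 17102 and to which the bright members themselves contribute. In 7 of the 10 groups the same array had the lower median of all probe sets, which ranged from 252.8 to 286.7. The part of these array differences in the family's values was not tested. The ratio of the 3′ to the 5′ Gapdh control probe sets, a measure of RNA integrity, ranged from 0.739 to 0.944 in the TSA arm and from 0.672 to 0.885 in the Sir2 arm.

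The Sir2 arm was tighter. The median of the 21 probe sets averaged 11.89 in Sir2 cells (11.825 to 11.933), against 11.74 in vector cells (11.644 to 11.816), at 12 h, with no overlap. At 36 h it averaged 11.93 (11.788 to 12.075) in Sir2 cells, against 11.88 (11.782 to 11.955) in vector cells. Taken probe set by probe set, the changes with Sir2 were smaller at 12 h than these array medians would give. The median log2 change of the 21 was 0.06 at 12 h (0.04 after quantile normalization) and 0.05 at 36 h (0.10). Over all tested members, the SD of the median within groups was 0.23 (log2) for the TSA arm and 0.09 for the Sir2 arm.

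**Figure D2:**
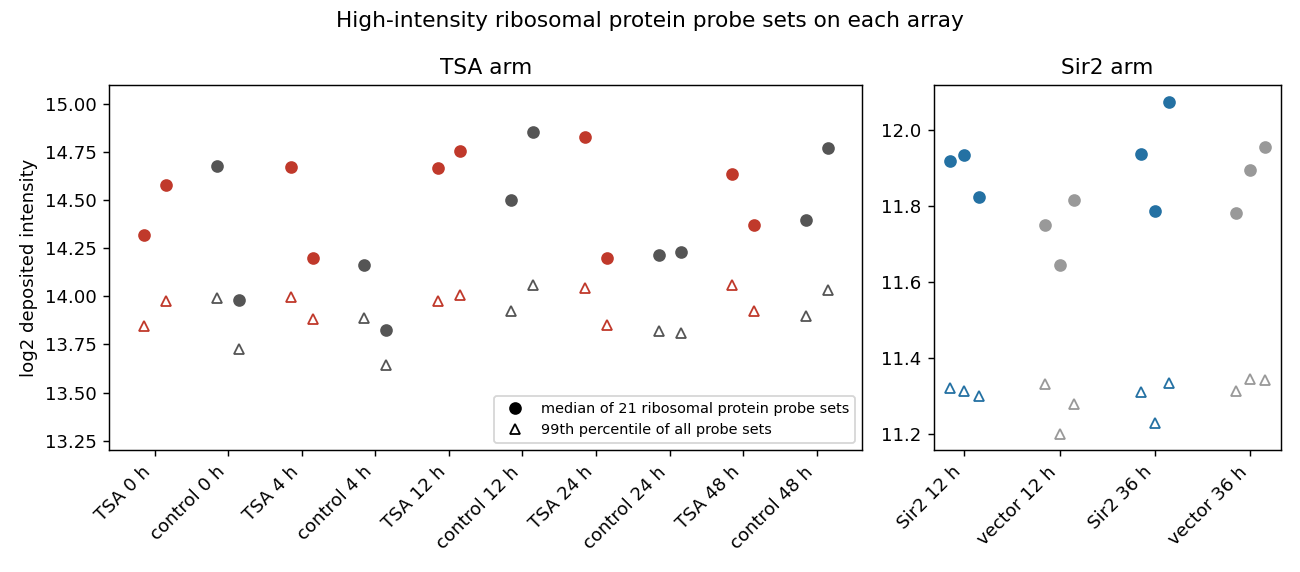
Median log2 intensity of the 21 high-intensity ribosomal protein probe sets (filled points) and 99th percentile of all probe sets (open triangles) on each array, by group, for the TSA arm (left) and the Sir2 arm (right). The 2 arrays of control cells at 0 h lie 0.70 apart. In 9 of the 10 TSA-arm groups the array with the higher ribosomal protein median also has the higher 99th percentile. In the Sir2 arm vector replicate 3 at 12 h has the highest median of its group but not the highest 99th percentile.

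Few ribosomal protein probe sets passed with TSA, and those that did were lower. In growth medium 0 of 31 tested members passed, against 17.9% of all 7453 probe sets (limma), and 1 had an unadjusted p under 0.05. After 4 h 0 of 31 passed against 11.4% of all, with 0 at an unadjusted p under 0.05, and after 12 h 0 of 31 against 4.08%, with 1. After 24 h 1 of 31 passed, lower with TSA, against 5.94% of all in either direction and 3.27% lower, and after 48 h 4 of 31 (12.9%) passed, all lower, against 19.6% of all probe sets in either direction and 9.1% lower. Over the mean of the 5 times 2 of 31 passed, both lower, against 22% of all in either direction and 11.9% lower, and the size of the TSA effect differed between times (F test) for 3 of 31 against 22.2% of all.

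The median log2 change of the 31 members was 0.08 at 0 h, 0.34 at 4 h, -0.01 at 12 h, 0.22 at 24 h and -0.08 at 48 h, beside 0, -0.045, -0.023, 0.003 and -0.028 over all probe sets. Quantile normalization brought the medians to 0.08, 0.09, 0.02, 0.01 and -0.09, which turned the sign at 12 h and took most of the shift at 4 and 24 h, and median centring turned it at 12 h too (0.04). At 4 h 20 of the 21 bright probe sets were above 0 with a median of 0.36, and after quantile normalization 16 were, with a median of 0.14. Without control replicate 2 the median at 0 h was -0.21, and without control replicate 1 it was 0.35. Without TSA replicate 2 the median at 24 h was -0.02.
Both TSA arrays lay above both control arrays for 1 of 31 members at 0 h (31.1% of all probe sets), 13 at 4 h (23.8%), 5 at 12 h (23.6%), 7 at 24 h (22.9%) and 3 at 48 h (25.5%). Both lay below for 6 members at 0 h (32.5% of all), 4 at 4 h (30.7%), 5 at 12 h (28.6%), 2 at 24 h (22.5%) and 13 at 48 h (28.6%).

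**Figure D3:**
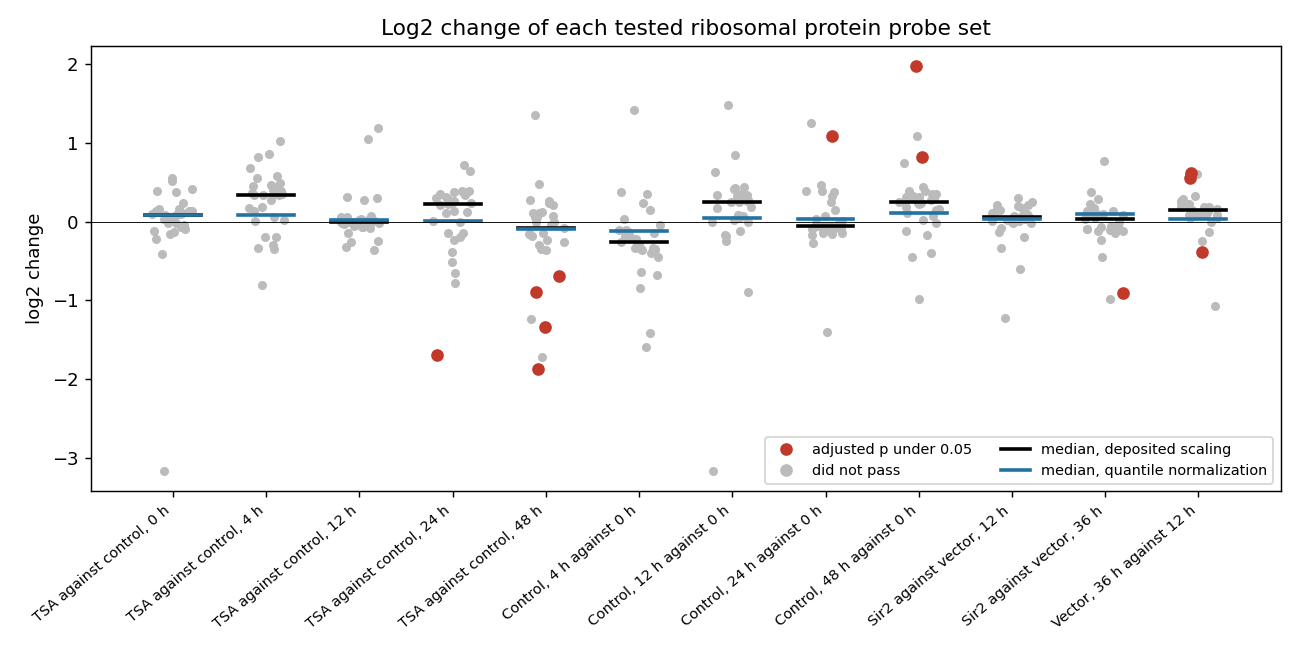
Log2 change of each tested ribosomal protein probe set (31 in the TSA arm, 29 in the Sir2 arm) in 12 comparisons, with red points for an adjusted p under 0.05. Black lines give the median of the members with the deposited scaling and blue lines the median after quantile normalization, which lies closer to 0 at 4 and 24 h of TSA, and 1 to 4 points per comparison passed where any did.

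Rpl22, a large subunit protein that binds RNA and is not essential for protein synthesis, had the largest TSA effect among the members that passed, at 92857_at. At 24 h its intensity was 109.4 and 181 with TSA, against 755 and 796 in controls. At 48 h it was 306 and 340 with TSA, against 1469 and 1633 in controls. The groups did not overlap at either time.
The TSA and control arrays were closer before 24 h, with TSA higher at 0 h, lower at 12 h and overlapping at 4 h. Intensities were 338 and 697 with TSA, against 278 and 305 in controls, at 0 h, 194 and 446 against 242 and 531 at 4 h, and 221 and 222 against 251 and 333 at 12 h. The change was -1.70 ± 0.31 (log2, SE, n = 2 per group) at 24 h with an adjusted p of 0.00616 (limma), and -1.87 ± 0.31 at 48 h with an adjusted p of 0.00122. At 0, 4 and 12 h it was 0.55, -0.19 and -0.25, none past the threshold. The mean over times was -0.69 ± 0.14 (adjusted p = 0.00311), and the effect differed between times by up to 2.43 (F test, adjusted p = 0.00503). Without TSA replicate 2 the call at 24 h was lost (-1.52, adjusted p = 0.0576), and with only the groups compared in the fit both calls were lost (adjusted p = 0.123 at 24 h and 0.0614 at 48 h). The muscle marker sum was 18024 to 20801 with TSA against 23680 to 24657 in controls at 24 h, and 85845 to 96144 against 59287 to 62606 at 48 h, and its part in these changes was not tested. Not all of the 8 markers moved with the sum. At 24 h 1 passed higher and 3 lower, and at 48 h 4 higher and 1 lower (4 and 0 after quantile normalization or median centring). In bulk RNA fewer cells that express a gene and less of its RNA per cell cannot be told apart.

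The second Rpl22 probe set, 92856_at, did not show this. It was 167 and 297 with TSA, against 307 and 77.5 in controls, at 48 h, and the log2 change was 0.23 ± 0.32 (adjusted p = 0.670). At 24 h it was 182 and 222 with TSA, against 206 and 439 in controls, a change of -0.39 ± 0.32. The groups overlapped at both times. The gap between the 2 probe sets was 2.11 on the log2 scale at 48 h and 1.31 at 24 h.

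Rpl13a, a large subunit protein that in human monocytes also silences inflammatory mRNAs after leaving the ribosome, was lower with TSA at 48 h. Its intensity was 1664 and 2128 with TSA, against 5959 and 4157 in controls, and the groups did not overlap. At 0 h it was 2585 and 2548 with TSA, against 2685 and 2843 in controls. The log2 change at 48 h was -1.34 ± 0.22 (adjusted p = 0.00101, limma), and the effect differed between times by up to 1.64 (F test, adjusted p = 0.0131). That F test lost its call without control replicate 1 at 48 h (adjusted p = 0.0544) and without TSA replicate 1 at 48 h (0.0612). At 4, 12 and 24 h the changes were 0.02, 0.29 and -0.23, none past the threshold.

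Rpl10a, a protein of the mobile stalk beside the exit site for tRNA, was lower with TSA at 48 h at both of its probe sets. At 100711_at the intensity was 13607 and 14369 with TSA, against 21120 and 24369 in controls. At 161327_f_at it was 4350 and 4471 with TSA, against 8645 and 8070 in controls. Neither pair of groups overlapped, and the 2 probe sets moved the same way.
The changes at 48 h were -0.69 ± 0.14 (adjusted p = 0.00345) and -0.90 ± 0.15 (adjusted p = 0.00120). Over the mean of the 5 times 161327_f_at was lower by -0.38 ± 0.07 (adjusted p = 0.00135), and 100711_at had -0.17 ± 0.06 (adjusted p = 0.0698). The F test over times passed for 100711_at (range 0.86, adjusted p = 0.0361), but was lost in 16 of 29 alternatives, among them median centring (adjusted p = 0.0537), the replicate number as a block (0.0606) and leaving out single arrays (up to 0.113, without control replicate 2 at 48 h). With only the groups compared in the fit, the 48 h calls of Rpl10a and Rpl13a were lost as well (adjusted p = 0.158, 0.0998 and 0.114).

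**Figure D4:**
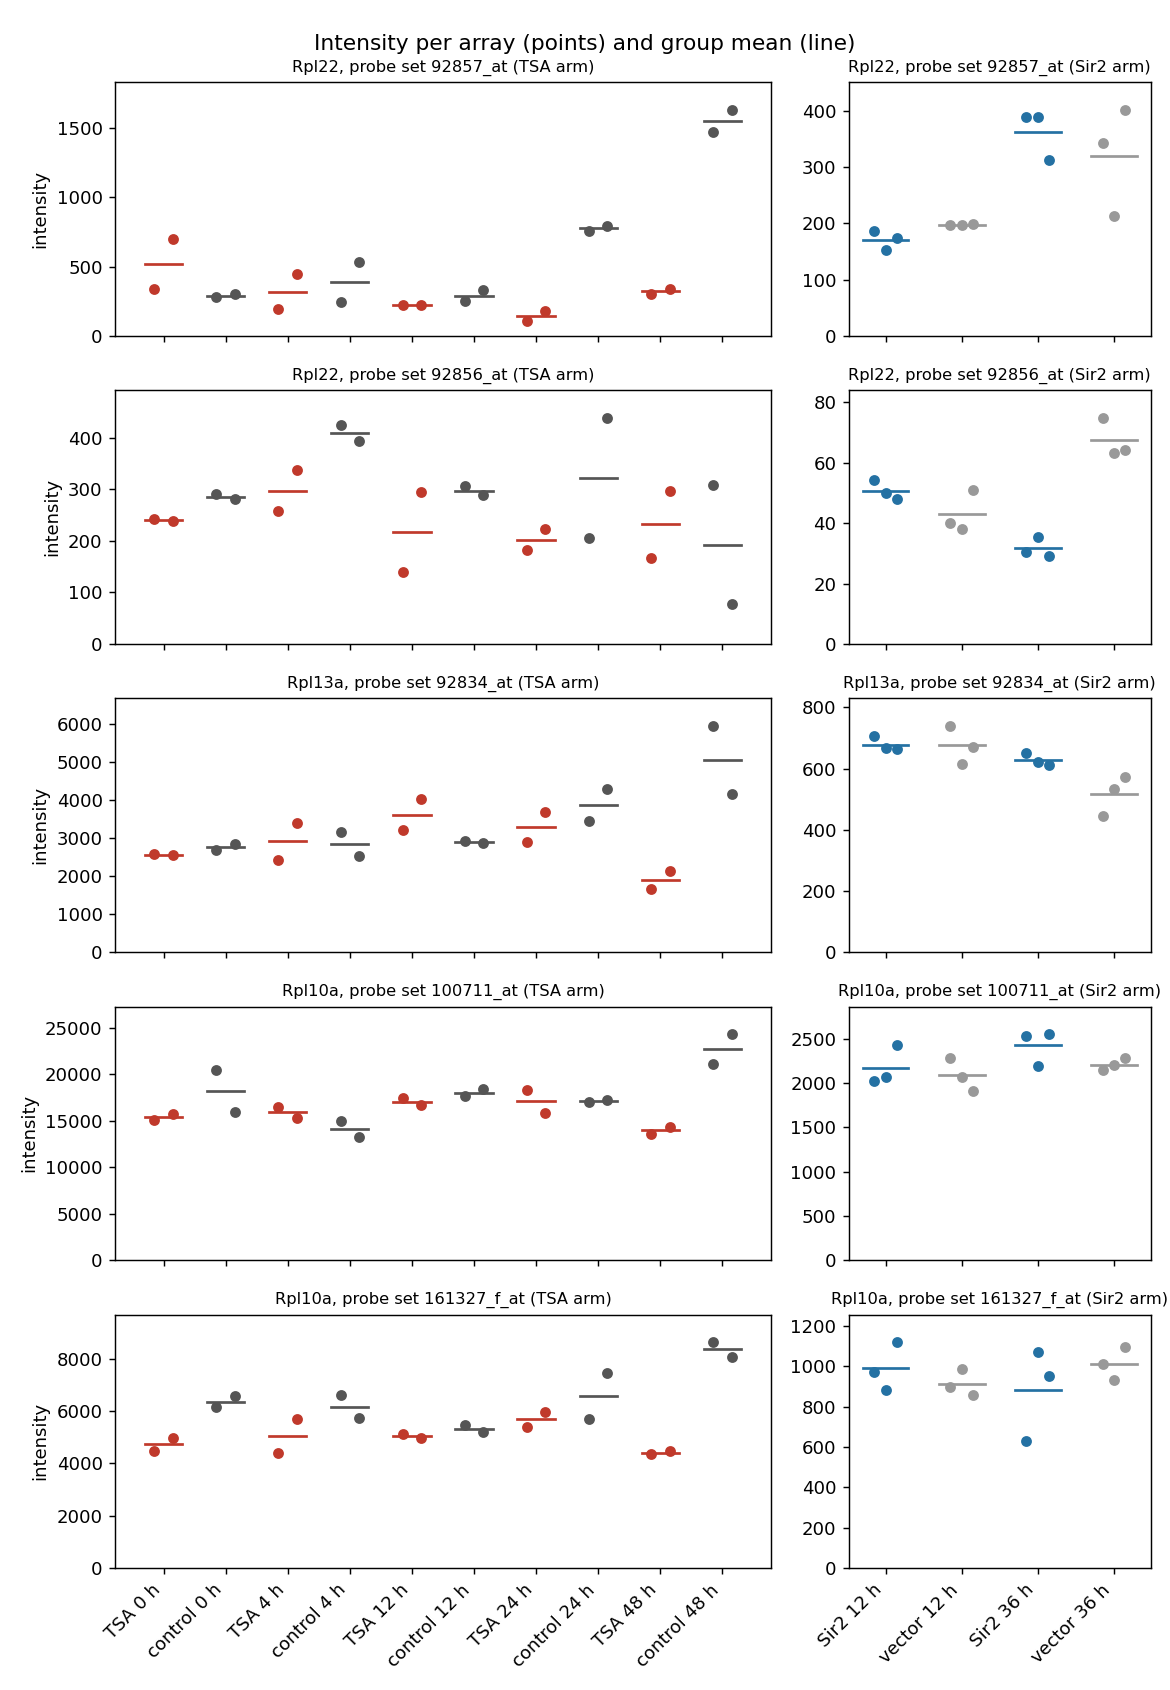
Deposited intensity on each array (points) and group mean (line) for the 5 probe sets with at least 1 call: both of Rpl22, that of Rpl13a and both of Rpl10a, in the TSA arm (left) and Sir2 arm (right). At 48 h the control arrays of Rpl22 92857_at, Rpl13a and Rpl10a lie above the TSA arrays.

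No other tested member had a call with TSA. Rplp0 was 31758 and 28656 with TSA, against 30207 and 39164 in controls, at 48 h, a change of -0.19 ± 0.27 (adjusted p = 0.679). Rpsa, a small subunit protein also known as a laminin receptor, was 14048 and 12565 with TSA, against 9333 and 14076 in controls, a change of 0.21 ± 0.24 (adjusted p = 0.594). In both the groups overlapped. Rps27l was 405 and 444 with TSA, against 527 and 2502 in controls, at 48 h, and its change of -1.24 ± 0.77 did not pass (adjusted p = 0.296). Rps28, a small subunit protein near the mRNA exit, had 3 tested probe sets whose changes at 48 h ran from 0.06 to 1.35, none past the threshold, and the dimmest had a control mean below 0. Rps13, a small subunit protein, was -250.3 and -362.1 with TSA, against 1100 and 1095 in controls, at 0 h, and its only probe set was at or below 0 on 11 of 20 arrays, so no fold is given. The probe set of Rps27, a zinc-finger protein of the small subunit, was 519 and 1324 with TSA at 0 h, against 607 and 583 in controls.

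In control cells 0 of 31 members passed at 4 h of differentiation, against 0 h (limma), where 2.05% of all probe sets passed. At 12 h 0 of 31 passed, where 5.23% of all did. An unadjusted p under 0.05 was met by 2 members at 4 h and 1 at 12 h. At 24 h 1 of 31 was higher, against 12.9% of all in either direction and 6.13% higher, and at 48 h 2 of 31 were higher, against 35.3% of all in either direction and 16% higher. Rpl22 at 92857_at was 755 and 796 at 24 h and 1469 and 1633 at 48 h, against 278 and 305 at 0 h. It rose by 1.09 ± 0.31 at 24 h (adjusted p = 0.0377) and by 1.97 ± 0.31 at 48 h (adjusted p = 0.000326), with no overlap.
The call at 24 h was lost without any 1 of the 4 arrays. It was also lost with no filter (adjusted p = 0.0708), the replicate block (0.109) or a covariate for titles with b after the replicate number (0.0727). The second Rpl22 probe set was 307 and 77.5 at 48 h, against 290 and 280 at 0 h, a change of -0.45 ± 0.32 that did not pass. Rpl13a was 5959 and 4157 at 48 h, against 2685 and 2843 at 0 h, and rose by 0.82 ± 0.22 (adjusted p = 0.0107). Without control replicate 1 at 48 h its change was 0.57 (adjusted p = 0.104), and without control replicate 1 at 0 h it was 0.78 (0.0614). The comparisons of TSA with control at 24 and 48 h share these control arrays, so these values of Rpl22 and Rpl13a are not separate observations.

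The median change of the 31 members in control cells was -0.27 at 4 h, 0.24 at 12 h, -0.06 at 24 h and 0.24 at 48 h, and after quantile normalization -0.12, 0.05, 0.03 and 0.10, so the sign turned at 24 h. These medians rest on the 2 arrays at 0 h. Without replicate 1 at 0 h they were 0.0049, 0.52, 0.20 and 0.55, and without replicate 2 at 0 h those at 4, 24 and 48 h were -0.52, -0.30 and -0.0084. Both later arrays lay above both at 0 h for 3 of 31 members at 4 h (30.2% of all probe sets), 2 at 12 h (27.9%), 5 at 24 h (29.1%) and 7 at 48 h (33.6%). Both lay below for 6 members at 4 h (25.6% of all), 4 at 12 h (27.8%), 0 at 24 h (29.6%) and 1 at 48 h (33.4%). Rps27 was 607 and 583 at 0 h, 2253 and 1471 at 4 h, 2106 and 1724 at 12 h, 1372 and 1869 at 24 h, and 2531 and 767 at 48 h. All later control arrays lay above both at 0 h, and no Rps27 change passed (adjusted p = 0.121 to 0.2).

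In Sir2 cells 0 of 29 tested members passed at 12 h, against 5.55% of all probe sets, with 1 at an unadjusted p under 0.05 (limma). At 36 h 1 of 29 passed, lower with Sir2, against 9.26% of all in either direction and 3.22% lower. The median change of the 29 was 0.05 at 12 h and 0.03 at 36 h (0.03 and 0.09 after quantile normalization). All 3 Sir2 arrays lay above all 3 vector arrays for 2 of 29 members at 12 h (12.4% of all probe sets) and 1 at 36 h (15.2%), and below for 2 at 12 h (10.8%) and 4 at 36 h (14.9%). The call was Rpl22 at its dim probe set 92856_at, which was 30.6, 35.6 and 29.1 in Sir2 cells, against 74.98, 63.2 and 64.2 in vector cells, at 36 h.
The groups did not overlap, and the change was -0.91 ± 0.12 (SE, n = 3 per group, adjusted p = 0.000742). At 12 h the same probe set was 54.3, 49.9 and 48.1 in Sir2 cells, against 40.2, 38.1 and 51.1 in vector cells, a change of 0.20 ± 0.12 (adjusted p = 0.432). The effect at 36 h minus that at 12 h was -1.12 ± 0.17 (adjusted p = 0.0120), 1 of 29 members, lower, against 1.76% of all probe sets in either direction and 0.483% lower. The brighter probe set 92857_at was 388, 388 and 312 in Sir2 cells, against 342, 212 and 402 in vector cells, at 36 h, and its change of 0.22 ± 0.19 did not pass (adjusted p = 0.526). The muscle marker sum at 36 h was 10539 to 11965 in Sir2 cells, against 14657 to 15108 in vector cells, and its part was not tested.

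No other member passed between Sir2 and vector cells. Rplp0 was 6500, 5630 and 6677 in Sir2 cells, against 5586, 6129 and 5916 in vector cells, at 36 h, a change of 0.09 ± 0.13 (adjusted p = 0.720). Rpl13a was 652, 621 and 610 in Sir2 cells, against 445, 534 and 571 in vector cells. Its groups did not overlap at 36 h, but its change of 0.28 ± 0.12 did not pass (adjusted p = 0.164). Rpl19, a large subunit protein, was 19.8, 17.1 and 14.1 in Sir2 cells, against 102.3, 49.3 and 24.9 in vector cells, at 12 h at its dim probe set, 161961_at. These groups did not overlap, but the change of -1.23 ± 0.39 did not pass (adjusted p = 0.104), and that of the bright probe set was 0.16 ± 0.14.

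Between 12 and 36 h in vector cells 3 of 29 members passed, 2 higher and 1 lower, against 32.1% of all probe sets, 12.4% higher and 19.7% lower. The 36 h arrays lay above all those of 12 h for 6 members (19.1% of all probe sets) and below for 3 (26.6%). Both Rpl22 probe sets rose: 92857_at was 342, 212 and 402 at 36 h, against 197, 197 and 198 at 12 h, and 92856_at was 74.98, 63.2 and 64.2 at 36 h, against 40.2, 38.1 and 51.1 at 12 h. Their changes were 0.62 ± 0.19 (adjusted p = 0.0272) and 0.56 ± 0.12 (adjusted p = 0.00442), with no overlap in either. The comparison of Sir2 with vector at 36 h shares these vector arrays, so the calls of 92856_at in the 2 comparisons are not separate observations. The call of 92857_at was lost without any 1 of vector replicates 1, 2 or 3 at 12 h or replicates 1 or 3 at 36 h (adjusted p = 0.0577 to 0.113), with no filter (0.0543) and with only the groups compared (0.0627).
Rpl13a was 445, 534 and 571 at 36 h, against 740, 616 and 671 at 12 h, and fell by 0.39 on the log2 scale (SE 0.12, adjusted p = 0.0239). That call was lost without vector replicate 1 or 3 at 12 h or replicate 1 at 36 h (adjusted p = 0.0508 to 0.1002). Rpsa was 1616, 1675 and 1758 at 36 h, against 2066, 1873 and 2084 at 12 h, a change of -0.25 ± 0.10 that did not pass (adjusted p = 0.0827). The times differ between the arms, so the 2 time courses are set side by side only.

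Rpl7l1, a relative of Rpl7 outside the rule, averaged 404.3 with TSA, against 735.4 in controls, at 4 h, and fell by 0.69 on the log2 scale (SE 0.20, limma, adjusted p = 0.0427). At that time 11.4% of all probe sets passed. Its TSA changes at the other times did not pass: -0.52 at 0 h, 0.01 at 12 h, 0.37 at 24 h and 0.04 at 48 h. Nor did the mean of the 5 times (-0.16 ± 0.09, adjusted p = 0.239).

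A further 38 probe sets carry a ribosomal protein symbol together with other genes, mostly pseudogenes, and the array cannot say which of them gave the signal. Rplp1, a stalk protein, Rps6, whose protein is the substrate of S6 kinase, and Rpl36al are on the array only in this way, and Rps3a1 and the transcribed pseudogene Rps4l fall outside the rule. Rplp1 averaged 25554 with TSA, against 23355 in controls, at 48 h, and Rps6 averaged 27645 with TSA, against 30701 in controls, neither change past the threshold. With the 45 members, the 38 and those of Rps3a1 and Rps4l, 67 probe sets were tested in the TSA arm and 11 passed at 48 h, all lower with TSA, against 19.6% of all probe sets in either direction and 9.1% lower. The additional ones were Rpl36 (11559 with TSA, against 18461 in controls, -0.67 ± 0.11), Rpl28 (-0.63 ± 0.17), Rpl27a (-0.62 ± 0.14), Rpl36a with Rpl36al (-0.52 ± 0.15), Rpl3 (-1.17 ± 0.17), Rps25 (-1.06 ± 0.29) and Rps4l (-0.79 ± 0.23). At 24 h 1 of 36 additional probe sets passed, against 5.94% of all. It was Rps4l, which was higher (267.4 with TSA, against 70.6 in controls, 0.97 ± 0.23, limma, adjusted p = 0.0257). Its control mean lies under the filter of 144.9 and under the 137.7 added before log2. In control cells at 48 h, against 0 h, 2 of 36 additional probe sets passed, both higher (Rpl27a, 0.38 ± 0.14, and Rps25, 1.16 ± 0.29). Of all probe sets 35.3% passed there in either direction and 16% higher. In vector cells at 36 h, against 12 h, 3 of 35 passed, all higher (Rpl23, Rpl34 and Rpl30), against 32.1% of all in either direction and 12.4% higher. With Sir2 0 of 35 additional probe sets passed at either time, against 5.55% of all at 12 h and 9.26% at 36 h.

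Related lists cover genes that build the ribosome or work with it, each with 1 probe set per gene. Of 57 nucleolar biogenesis genes 17 passed at 0 h of TSA, 15 of them lower. Over all probe sets 1336 of 7453 (17.9%) passed there, 747 of them lower. Nop10, a part of the complexes that modify ribosomal RNA, rose by 1.44 ± 0.15 (10521 with TSA, against 3799 in controls), Imp3, a part of the small subunit processome, rose by 0.86 ± 0.13, Tsr1, a maturation factor of the small subunit, fell by 0.85 ± 0.13, and Nop56, a part of box C/D particles, fell by 0.71 ± 0.12 (limma, adjusted p = 4.03e-05 to 0.00118).
Of 32 initiation factors 8 passed at 0 h, 6 of them lower, among them the RNA helicase Eif4a1 (3508 with TSA, against 6375 in controls, -0.84 ± 0.13) and Eif5 (-0.75 ± 0.14), while the exchange factor subunit Eif2b2 rose by 0.63 ± 0.11. Of 8 elongation and termination genes 3 passed, all lower (Abce1, Gspt1 and Eef1akmt1), and of 58 mitochondrial ribosomal protein genes 9 passed, 3 higher and 6 lower (3 and 4 after quantile normalization or median centring). Of 15 regulators of ribosomal protein synthesis 4 passed, 2 in each direction, and none of 3 other ribosome-bound factors did.

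At 4 h of TSA 5 of 57 biogenesis genes passed, 3 higher and 2 lower, against 11.4% of all probe sets. At 12 h 2 passed, both higher, against 4.08% of all in either direction and 191 of 7453 higher. At 24 h 0 passed (2 higher after quantile normalization), against 5.94%, with 9 at an unadjusted p under 0.05.
At 48 h of TSA 10 of 57 biogenesis genes passed, 8 of them lower, against 19.6% of all probe sets in either direction and 9.1% lower, including Npm1, the nucleolar chaperone (9606 with TSA, against 18361 in controls, -0.92 ± 0.17), and the polymerase subunit Polr1c (-0.72 ± 0.12). Of the initiation factors 10 of 32 passed, 7 lower, among them Eif3d (-0.70 ± 0.12) and Eif3c (-0.56 ± 0.11). Of the mitochondrial ribosomal proteins 15 of 58 passed, 11 lower (8 of 13 and 7 of 12 after quantile normalization and median centring), with Mrpl24 at -1.17 ± 0.16 and Mrpl18 at 0.84 ± 0.15. Of the elongation and termination genes 2 of 8 passed, both higher, beside 786 of all 7453 probe sets. These were Eef1akmt1 at 0.93 ± 0.13 and Gspt1 at 0.46 ± 0.12, and after quantile normalization 2 passed higher and 1 lower. Of the 15 regulators of ribosomal protein synthesis 3 passed, 1 higher and 2 lower, against 19.6% of all probe sets. Btf3, a subunit of the complex at the exit tunnel, fell by 0.77 ± 0.13, and Myc, a driver of ribosome production, fell by 0.69 ± 0.16 (154.2 with TSA, against 331.6 in controls). The TSA mean of Myc lies close to the filter of 144.9 and to the 137.7 added before log2.

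In control cells at 48 h, against 0 h, 15 of 57 biogenesis genes passed, 10 lower, with Ddx18 at -0.97 ± 0.13 and Mybbp1a at -1.15 ± 0.23. Over all probe sets 2630 of 7453 (35.3%) passed there, 1437 of them lower. Of the mitochondrial ribosomal proteins 22 of 58 passed, 12 higher, with Mrpl23 at 1.11 ± 0.13 and Mrps10 at 1.14 ± 0.13, and of the initiation factors 11 of 32 passed, 6 higher (5 of 10 after quantile normalization, 6 of 12 after median centring). At 24 h 12 of 57 biogenesis genes passed, all lower, among them the box H/ACA protein Nhp2 (2340 at 24 h, against 4419 at 0 h, -0.88 ± 0.14). Over all probe sets 959 of 7453 (12.9%) passed at 24 h, 502 of them lower.
With Sir2 at 12 h 5.55% of all probe sets passed in either direction, and 207 of 7453 passed higher. Of 59 biogenesis genes 5 passed, all higher (5 after quantile normalization and 0 after median centring). They were Nop10, Nhp2, Nop56, Nop58 (257.1 with Sir2, against 171.6 in vector cells, 0.56 ± 0.11, limma, adjusted p = 0.0113) and Rrs1, and the muscle marker sum there was 2778 to 3379 with Sir2, against 5180 to 5618 in vector cells, its part not tested. With Sir2 at 36 h 0 of 59 biogenesis genes passed, against 9.26% of all probe sets, with 8 at an unadjusted p under 0.05, and the 4 mitochondrial ribosomal proteins that did, all lower, became 0 after median centring. Of 10 elongation and termination genes 3 passed, all lower (2 after median centring), against 9.26% of all in either direction and 3.22% lower. Among them was the exchange factor Eef1b2 (21.4 with Sir2, against 81.9 in vector cells, -1.51 ± 0.35, limma, adjusted p = 0.0185). Its Sir2 mean lies under the filter of 31.1, which was applied to the mean over the arm. In vector cells at 36 h, against 12 h, 15 of 59 biogenesis genes passed, all higher (18 after quantile normalization and 10 after median centring), against 32.1% of all probe sets in either direction and 12.4% higher. They included Rrp12 (160.2 at 36 h, against 26.9 at 12 h, 2.37 ± 0.36) and Wdr74 (0.96 ± 0.12). The 12 h mean of Rrp12 also lies under the filter of 31.1. Of the mitochondrial ribosomal proteins 10 of 58 passed, 3 higher and 7 lower (5 and 4 after quantile normalization, 1 and 6 after median centring). Eif4ebp1, the repressor of cap-dependent initiation, rose by 2.04 ± 0.14 there (677.9 at 36 h, against 159.1 at 12 h).

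**Figure D5:**
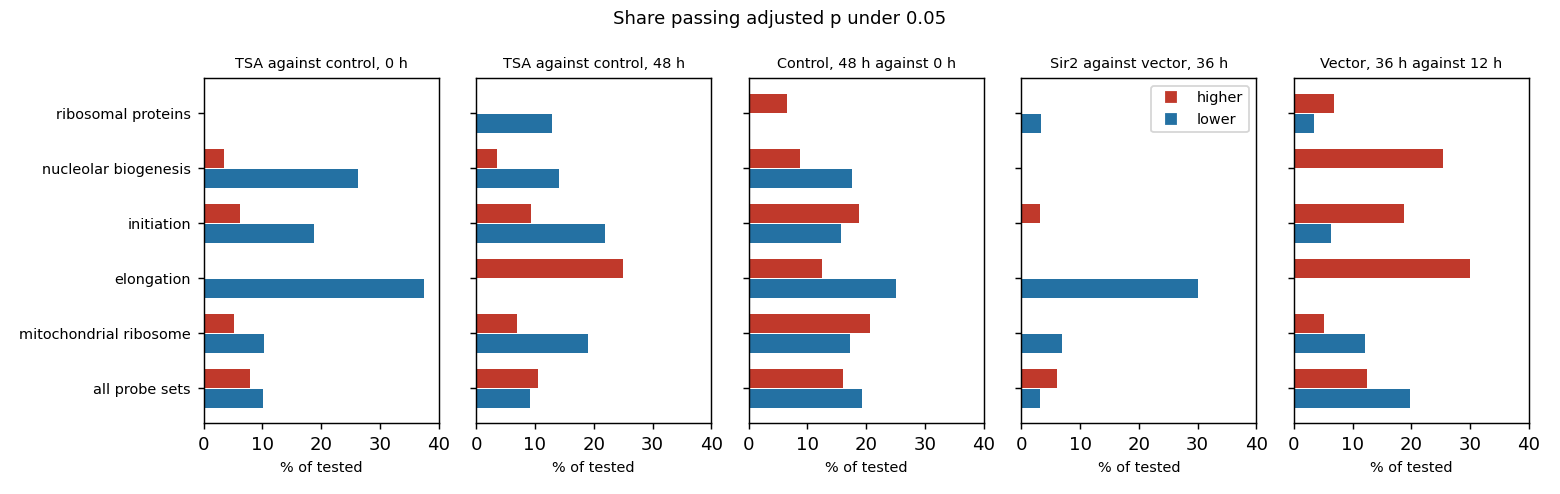
Share of tested genes that passed an adjusted p under 0.05, higher (red) and lower (blue), for the ribosomal protein probe sets, 4 related gene lists with 1 probe set per gene, and all probe sets, in 5 comparisons. At 0 h of TSA 0 of 31 ribosomal protein probe sets passed, while 15 of 57 nucleolar biogenesis genes and 747 of all 7453 probe sets passed lower.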

How the data were processed

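The series holds 32 arrays in 14 groups, taken from the titles and descriptions. The deposited values are intensities on a linear scale, 1 per probe set and array. Those of the Sir2 arm were made with MAS5, per the submitters' processing notes, and for the TSA arm, whose intensities include values below 0, no tool is named in the sources used here. Of 12488 rows 66 control probe sets were left out. Probe sets were named through the platform annotation, 10833 to 1 gene, 396 to several and 1193 to none, and 10817 were found in RefSeq (GRCm38.p6) by Entrez identifier.

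Each arm was fitted apart with limma 3.58.1 in R 4.3.3 (lmFit and eBayes, 1 mean per group, residual degrees of freedom 10 and 8) on log2 of the intensity plus the 40th (TSA) or 20th (Sir2) percentile of all values, with values below 0 set to 0 first. Probe sets under the 40th percentile of the means were left out, and p-values were adjusted over all 7453 by Benjamini-Hochberg. Changes are the first named group minus the second, with SE after ±. The model was tested on simulated data with noise drawn independently for each probe set and array. That test does not cover shifts that many probe sets of an array share. Figures and summaries used Python 3.11.15, pandas 2.3.3, numpy 2.4.6 and matplotlib 3.10.9.

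The members, gene lists and tests were chosen with earlier results of these data known. Named with values were members that passed with groups that do not overlap, up to 5 per direction (3 in the lesser comparisons), variant copies, Rplp0, Rplp1, Rplp2, Rpsa and Rps6, the 3 highest and lowest means, genes whose probe sets differ by over 1, and up to 4 genes of smallest p per related list. Rps13 and Rps27 were chosen after their values were seen. Alternatives were a lower and a higher pseudocount, quantile normalization or centring on the array median, all probe sets without a filter, and a variance trend. Others were only the groups compared, a replicate block, a covariate for TSA-arm titles with b after the replicate number, 1 probe set per gene, and each array left out.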

Additional observations from a re-analysis of the deposited data

Results flagged for a closer look

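Rpl22 at 92857_at, Rpl13a and Rpl10a at 100711_at had TSA effects that differed between the 5 times by the F test of limma, with adjusted p of 0.00503, 0.0131 and 0.0361. Of 31 members 3 passed, against 22.2% of all probe sets. For Rpl22 the change was 0.55 at 0 h and -1.87 at 48 h. For Rpl13a it was 0.29 at 12 h and -1.34 at 48 h. For Rpl10a it was 0.17 at 4 h and -0.69 at 48 h. Rpl22 at 92856_at had a Sir2 effect that differed between 36 and 12 h, with an adjusted p of 0.0120: the change was -0.91 at 36 h and 0.20 at 12 h. No other member met a test of this kind.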

How the results depend on the processing

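No change of a member that passed turned its direction under any alternative run. The number of members that passed was 0 at 0, 4 and 12 h of TSA, 1 at 24 h and 4 at 48 h, 2 for the mean of the 5 times and 3 for the F test over times. In control cells it was 0 at 4 and 12 h, 1 at 24 h and 2 at 48 h, and in the Sir2 arm 0 for Sir2 at 12 h, 1 at 36 h, 1 for the difference between them and 3 for vector cells at 36 h against 12 h. With no filter 7 passed at 48 h of TSA, 5 in the F test, 0 in control cells at 24 h and 5 at 48 h. With a variance trend 1 passed at 0 h of TSA, 4 in the mean of the 5 times and 5 in vector cells. With only the groups compared, which leaves few arrays to estimate the spread, 1 passed at 0 h of TSA, 0 at 24 h, 0 at 48 h, 1 in control cells at 12 h, 1 at 48 h, 2 with Sir2 at 36 h and 1 in vector cells. With quantile normalization 5 passed in vector cells. With a covariate for titles with b after the replicate number, 1 passed in control cells at 12 h and 0 at 24 h. With 1 probe set per gene 1 passed in the mean of the 5 times, 0 with Sir2 at 36 h and 0 for the Sir2 difference. For these settings the cause was not tested.

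Other sets of members were added after the data were seen. With the wider set of ribosomal protein probe sets 2 passed at 24 h of TSA, 11 at 48 h, 5 in the mean of the 5 times, 7 in the F test, 4 in control cells at 48 h and 6 in vector cells. With the 21 members of high intensity, which leave out both Rpl22 probe sets, 0 passed at 24 h of TSA, 1 in the mean, 0 in control cells at 24 h, 1 at 48 h, 0 with Sir2 at 36 h, 0 for the Sir2 difference and 1 in vector cells. Leaving out 1 array at a time gave 0 to 1 at 24 h of TSA, 4 at 48 h, 2 to 3 in the mean, 1 to 3 in the F test, 0 in control cells at 24 h, 2 to 3 at 48 h, 0 to 1 with Sir2 at 12 h, 1 at 36 h, 1 for the Sir2 difference, 1 to 3 in vector cells and 0 in the other comparisons. The replicate block gave 0 in control cells at 24 h, 2 in the F test and 4 in vector cells, and the same counts as without it in the other comparisons. The replicate numbers were read from titles, which do not say whether they pair the arrays. Deviations from the group means correlated by -0.0997 to 0.228 between same-numbered arrays of the TSA arm and by -0.314 to 0.116 in the Sir2 arm. These values cannot settle pairing, because with 2 arrays per group the deviations mirror each other and both pairs of a time give the same value.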
